A study of Arabidopsis thaliana with 36 samples.

Results

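The genes described here were chosen by symbol from 10 families of calcium and protein kinase signalling: CPK, CIPK, CBL, CML, CRK, MPK, MKK, MAPKKK, PBL and WAK, each directly followed by a number. A gene also needed a probe set that names it alone and that reached 5 on the log2 scale on 3 or more of the 36 arrays. 2 genes met the rule, CML30 (AT2G15680) and CML38 (AT1G76650), out of 6800 named genes measured in the series. Both are calmodulin-like genes. The annotation used here names no gene of the other 9 families under such a symbol, although 153 genes of the RefSeq table carry one, so their probe sets are not analysed here. The working name of the group, which speaks of kinases, is therefore not borne out by its members, which encode calcium sensors with no kinase domain.

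Aerial parts of Arabidopsis plants overexpressing the clock transcription factor CCA1 (CCA1-ox, Columbia background) were harvested at 10 days of age at 6am, 12pm, 6pm and 12am, which are 0, 6, 12 and 18 h after the lights came on. The 6am harvest fell at the end of the dark period as the lights came on, and it was counted with 12am as dark by choice. Plants had grown on Murashige and Skoog agar with 1% sucrose, with 16 h of light and 8 h of dark a day. RNA of each extract was separated into large polysomal, small polysomal and non-polysomal RNA, and each fraction was hybridised to 1 array, which gave 12 groups of 3 replicates. All groups carry the transgene, whose promoter the labels do not state, and wild-type plants are not analysed here. The labels do not say whether replicates were grown separately, so p-values measure only how far these samples spread, which may be technical.

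Calcium ions enter the cytosol in brief pulses when a plant cell is touched, wounded, chilled, starved of oxygen or attacked. Calmodulins and calmodulin-like proteins bind the ions through EF hands and change shape, which lets them bind and regulate other proteins. Calcium-dependent kinases carry such EF hands on the kinase itself, and MAP kinase cascades and receptor-like kinases pass on signals from the cell surface. CML38 is known for its induction by wounding and low oxygen, and its protein has been found in stress granules. CML30 has been reported to be targeted to mitochondria. A transcript bound by many ribosomes sediments with the large polysomes and one bound by fewer with the small polysomes. RNA outside polysomes stays in the non-polysomal fraction.

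The array set showed 8 of 23 listed markers of green tissue under their own name, all measured, with means of 12.05 to 14.00. Root hair genes EXPA7 and EXPA18 lay at 2.15, the lower end of the scale, while PYK10, best known from roots, averaged 11.64. The stomatal lineage genes SPCH and MUTE lay at 2.15 and 2.21 and FAMA (FMA) averaged 6.54, and no phloem or xylem marker had a named probe set. The probe set named FDH averaged 10.02. That symbol was listed for the epidermis, but its locus was not checked, so it is not read as an epidermal marker. Whether more or fewer cells of a type or more or less RNA per cell gave a difference cannot be told apart in such bulk samples. The first 6am extract stood apart from the other 2 at that time: its level was lower than both by 2 or more (log2) for 28 probe sets and higher for 1, against 0 to 12 lower and 0 to 9 higher in the other 11 extracts. The next largest counts were also in first extracts, with 12 lower and 1 higher at 12pm and 9 lower and 9 higher at 6pm. Every remaining extract had at most 2 in either direction. CML38 is one of the 28 probe sets of the first 6am extract, so many of its differences are given below with and without that extract. Markers also moved between light and dark: 8 of 8 green-tissue markers were higher in the light, by 0.36 to 0.98 (log2), and their mean per extract ran from 13.20 to 13.71 in the light and from 12.42 to 13.40 in the dark. PYK10 was higher in the light by 0.43, and FMA (-0.49) and the probe set named FDH (-0.74) were lower. All of these were called in limma, where 72.6% of all probe sets were, so a call was usual. RCA, a green-tissue marker, gave -0.09 in replicate 1. When arrays were shifted to equal poly(A) spike-in signal FMA was -0.07, where the median of all probe sets was 0.42.

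Of the 10 families, the calmodulin-like family alone had named genes, 7 in all, of which 2 passed the threshold on low values. CML30 reached 5 on 36 of 36 arrays. CML38 reached it on 16, of which 7 were large polysomal, 6 small polysomal and 3 non-polysomal, and it reached it on no array at 12pm. Just outside the rule stood CML41, a protein of plasmodesmata, with a lowest value of 2.54, a median of 2.80 and a highest of 5.53, the last on the third large polysomal array of 12am and its only value above 5. CML42, which takes part in trichome branching, ran between 2.50 and 4.23 with a median of 2.92. The remaining genes lay at or near the lower end of the scale, with medians of 2.15 and highest values of 2.55 for CML23, 3.22 for CML37 and 3.14 for CML43. Small rises above that end were seen on a few large polysomal arrays. CML43 had 2.43, 2.62 and 3.14 on the large polysomal arrays of 12am, and CML37, a wound-responsive relative of CML38, had 2.15, 2.94 and 3.22 on those of 6am. No test of these 5 genes is reported, since differences near the lower end of the scale are compressed.

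**Figure D1:**
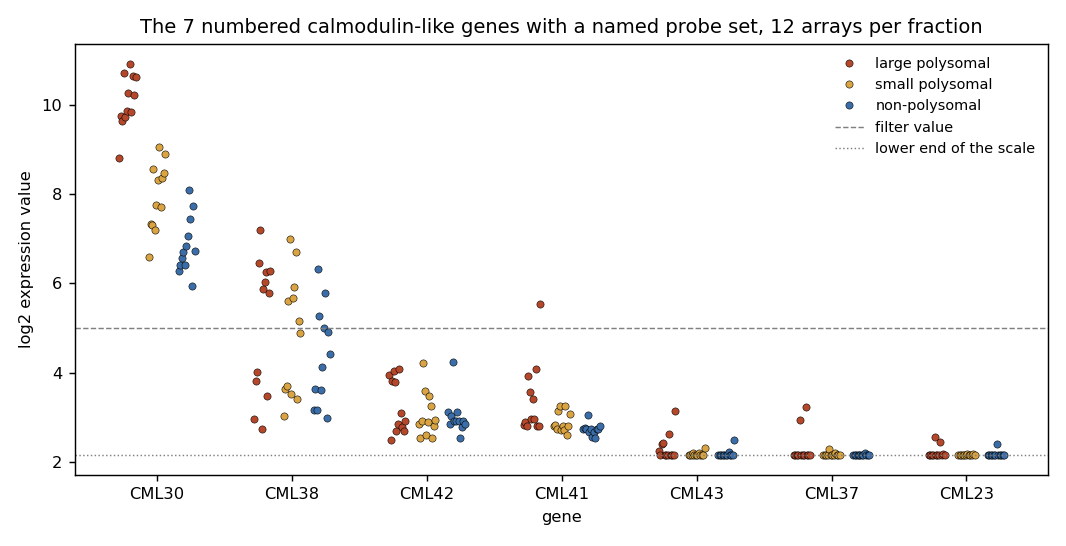
Log2 expression values of the 7 numbered calmodulin-like genes that have a probe set of their own, with 12 arrays in each of the large polysomal, small polysomal and non-polysomal fractions. CML30 lies above the threshold of 5 on all 36 arrays and CML38 on 16, while the other 5 genes stay below it except for 1 large polysomal value of CML41.

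Some genes fell outside the rule by their spelling alone. AT1G18150, named ATMPK8 on the array and MPK8 in the RefSeq table, and AT1G07880, named ATMPK13, are MAP kinases and were measured on all 36 arrays. AT1G76640, which has CML39 among its synonyms and lies next to CML38 in the RefSeq table, was at 2.15 on every array. AT5G18610, with the synonym PBL27, ran between 2.17 and 3.81. The symbols CBL and CRK without a number belong to other genes here, the cystathionine beta-lyase gene AT3G57050 and the gene CROOKED (AT4G01710), a subunit of the actin-nucleating ARP2/3 complex.

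CML30 was strongly weighted towards large polysomes at every time. Its log2 values at 6am were 8.82, 9.74 and 9.85 in large polysomal RNA, 6.60, 7.19 and 7.71 in small polysomal RNA, and 6.29, 6.41 and 7.45 in non-polysomal RNA. At 12pm they were 9.75, 9.86 and 10.65 in large polysomal RNA, 7.33, 7.77 and 8.36 in small polysomal RNA, and 6.42, 6.83 and 5.95 in non-polysomal RNA. At both times the 3 large polysomal values lay above all values of the other fractions. At 6pm the large polysomal arrays gave 9.64, 10.26 and 10.23, the small polysomal arrays 7.32, 8.31 and 8.48, and the non-polysomal arrays 6.58, 7.07 and 7.73. At 12am the large polysomal arrays gave 10.71, 10.93 and 10.64, the small polysomal arrays 8.57, 9.05 and 8.91, and the non-polysomal arrays 6.71, 8.09 and 6.73. Small polysomal values overlapped with non-polysomal ones at 6am and 6pm and lay above all of them at 12pm and 12am.

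Averaged over the 4 times, CML30 was higher in large polysomal than in non-polysomal RNA by 3.23 ± 0.20 on the log2 scale (SE), a 9.40-fold difference with an adjusted p of 2.3e-15 in limma. In this comparison 80.1% of all probe sets tested were called, in either direction, so a call alone sets few genes apart, while 33 of the 12635 probe sets had a larger difference than CML30. The difference, called the loading below, was positive in 12 of 12 extracts and ran from 2.39 to 4.69 with a median of 3.12. An exact permutation test that flips the sign of each extract gave p = 0.000488, the smallest value that its 4096 arrangements allow (0.0013 after Benjamini-Hochberg over 8 such tests). The small polysomal fraction lay between the other fractions. It was higher than the non-polysomal one by 1.11 ± 0.20, 2.16-fold, with a limma adjusted p of 1.2e-05 where 68.3% of probe sets were called. Large polysomal RNA was in turn higher than small polysomal RNA by 2.12 ± 0.20, 4.35-fold, with a limma adjusted p of 5.4e-10 where 55.5% were called. Both steps had the same sign in 12 of 12 extracts, from 0.26 to 2.41 for small minus non-polysomal and from 1.72 to 2.55 for large minus small polysomal, each with an exact permutation p of 0.000488.

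**Figure D2:**
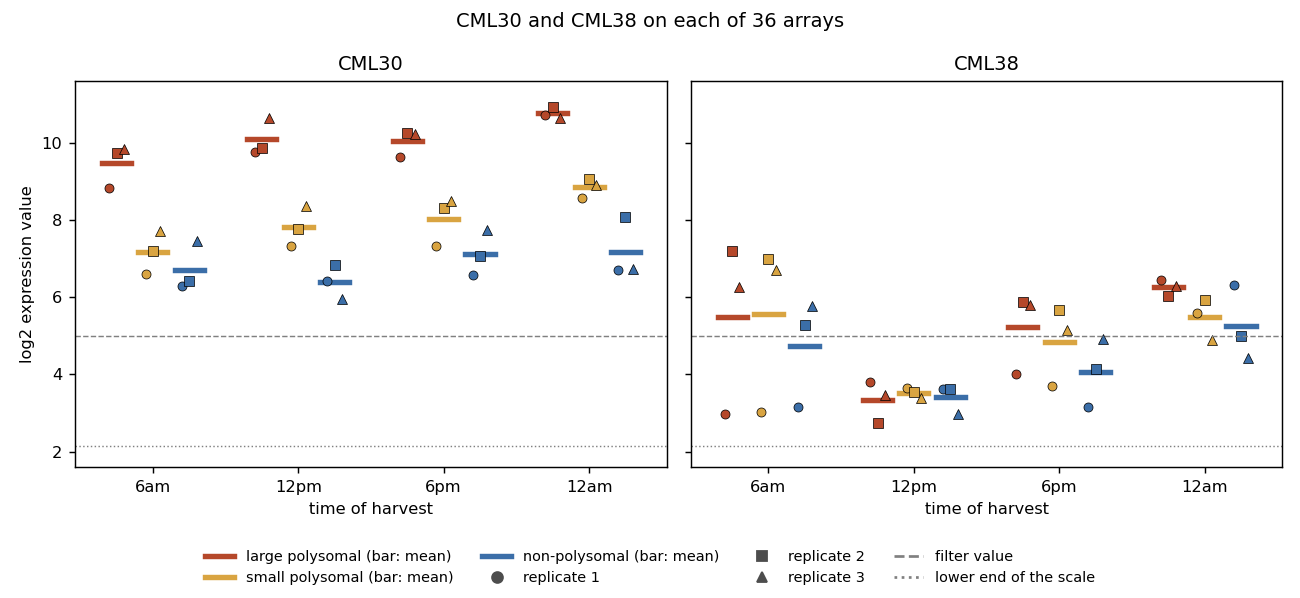
Log2 expression values of CML30 and CML38 on all 36 arrays at the 4 harvest times, with large polysomal, small polysomal and non-polysomal arrays side by side, a bar at the mean of each group of 3 and a marker for each replicate. CML30 steps down from large polysomal to non-polysomal arrays at every time, while CML38 stays under 5 on all 9 arrays of 12pm and on the 3 arrays of the first 6am extract.

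CML38 is described on its own, since many of its values lay under the threshold of 5. At 6am its log2 values were 2.97, 7.19 and 6.26 in large polysomal RNA, 3.03, 6.99 and 6.71 in small polysomal RNA, and 3.16, 5.28 and 5.78 in non-polysomal RNA. At 12pm they were 3.81, 2.73 and 3.47 in large polysomal RNA, 3.64, 3.53 and 3.4 in small polysomal RNA, and 3.63, 3.62 and 2.98 in non-polysomal RNA. The first 6am extract was low in all 3 fractions, and the 3 fractions overlapped at 12pm. At 6pm the large polysomal arrays gave 4.02, 5.87 and 5.79, the small polysomal arrays 3.70, 5.68 and 5.15, and the non-polysomal arrays 3.16, 4.13 and 4.92. At 12am the large polysomal arrays gave 6.45, 6.04 and 6.28, the small polysomal arrays 5.60, 5.93 and 4.90, and the non-polysomal arrays 6.32, 5.0 and 4.42. Large polysomal and non-polysomal values overlapped at all 4 times.

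Over the 4 times, CML38 averaged 0.71 ± 0.43 (log2, SE) more in large polysomal than in non-polysomal RNA, which did not pass the test in limma (adjusted p = 0.13). The loading was above 0 in 10 of 12 extracts and ran from -0.89 to 1.91 with a median of 0.67. Arrays of 1 extract deviated together, so the comparison was repeated within extracts. With a random block for each of the 12 extracts the same difference was called (0.71 ± 0.28, limma adjusted p = 0.023), and the exact permutation test over extracts gave p = 0.0186 (0.0371 after adjustment over the 8 tests). Without the first 6am extract, all 3 of whose values lay between 2.97 and 3.16, it was 0.82, called with no block as well (adjusted p = 0.0063). The small minus non-polysomal difference was 0.49 ± 0.43 (limma adjusted p = 0.32), not called with the random block, called with extracts as fixed terms of the block (adjusted p = 0.013), and 0.61 without the first 6am extract (adjusted p = 0.044). Its exact permutation p was 0.0361, or 0.0578 after adjustment. The large minus small polysomal difference was 0.22 ± 0.43 (limma adjusted p = 0.68, exact permutation p = 0.212). In 5 of the 12 extracts (the first of 6am, all 3 of 12pm and the first of 6pm) every fraction of CML38 lay between 2.73 and 4.02, where differences are compressed, so the loadings of CML30 and CML38 are not compared.

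The loading of neither gene passed a test of change over the day. For CML30 it averaged 2.75 ± 0.50 at 6am, 3.68 ± 0.89 at 12pm, 2.92 ± 0.37 at 6pm and 3.58 ± 0.64 at 12am (log2, SD, n = 3 extracts). For CML38 it averaged 0.73 ± 1.07, -0.08 ± 0.72, 1.16 ± 0.51 and 1.01 ± 0.87 at the same times. The ranges of the times overlapped for CML30, with the highest single value, 4.69, in the third 12pm extract, where the non-polysomal value was the lowest of all 12. For CML38 the 12pm extracts, with -0.89, 0.18 and 0.49, lay below the 6pm extracts, with 0.86, 0.88 and 1.74, but all 12pm values were near the lower end of the scale. The moderated F test over the 4 times gave limma adjusted p-values of 0.44 for CML30 and 0.84 for CML38, where 12.7% of probe sets were called. Light minus dark loading, which set 12pm and 6pm against 12am and 6am, was 0.14 ± 0.39 for CML30 and -0.33 ± 0.86 for CML38 (SE, limma adjusted p of 0.89 and 0.88), where 5.47% were called. These errors leave room for changes of loading that this number of arrays could not show.

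**Figure D3:**
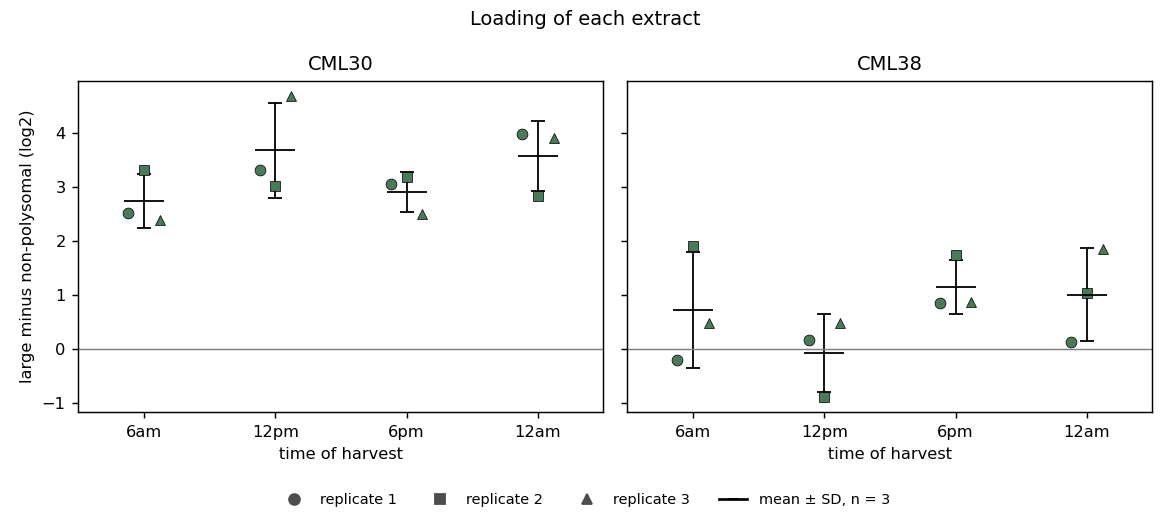
Loading (large polysomal minus non-polysomal RNA, log2) in each of 12 extracts at the 4 harvest times, with a marker for each replicate and the mean ± SD of 3. All 12 CML30 extracts lie between 2.39 and 4.69, and the CML38 extracts lie between -0.89 and 1.91 with 2 of them below 0.

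The level of each transcript, the mean of its 3 fractions, was tested for change over the day. Each fraction counts equally in it, whatever its share of the RNA, so the level is not the total amount of transcript. The moderated F test gave a limma adjusted p of 0.00031 for CML30 and 0.00086 for CML38, where 86.6% of probe sets were called, so a call by itself was usual. CML38 passed the threshold on low values only through times other than 12pm, so its result was in part fixed by how it passed. With the fractions of an extract averaged, the adjusted p was 0.019 for CML30 and 0.051 for CML38, which lost its call. Without replicate 2 the test of CML30 gave 0.061. In 15 repeats that left out a replicate, the limma adjusted p of CML38 in this F test ran from 5.9e-09 to 0.046. CML30 levels were 7.24, 7.78 and 8.34 at 6am, 7.83, 8.15 and 8.32 at 12pm, 7.85, 8.54 and 8.81 at 6pm, and 8.66, 9.36 and 8.76 at 12am. Mean levels were 7.78 ± 0.55, 8.10 ± 0.25, 8.40 ± 0.50 and 8.93 ± 0.38 in that order (SD, n = 3). The 12am extracts lay above all extracts of 6am and 12pm and overlapped those of 6pm. Neighbouring times otherwise overlapped. The level at 12pm was above that at 6am by 0.32 ± 0.23 and that at 6pm above 12pm by 0.30 ± 0.23, with limma adjusted p-values of 0.22 and 0.33, where 66.7% and 30.6% of probe sets were called. Without the third 6am extract the first of these steps was 0.59 and called (adjusted p = 0.03).

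CML30 was higher at 12am than at 6pm by 0.53 ± 0.23, 1.44-fold, at a limma adjusted p of 0.047 where 58.9% were called. With extracts as a random block that call was lost (adjusted p = 0.12), and so it was in 9 of 15 repeats that left out a replicate, where the difference ran from 0.25 to 0.81. The lowest of these came without the first 6pm extract. CML30 fell at 6am relative to 12am, by 1.14 ± 0.23 on the log2 scale, 2.21-fold (limma adjusted p = 0.00012), where 48.6% were called. That step kept its call with the random block (adjusted p = 0.0018) and in 15 of 15 repeats. Within single fractions it was -1.29 in large polysomal, -1.68 in small polysomal and -0.46 in non-polysomal RNA, and the last was not called (limma adjusted p = 0.38). The times counted as dark lay at the ends of its range, 6am lowest and 12am highest, and light against dark averaged -0.10 ± 0.16 for CML30 and was not called (adjusted p = 0.57, exact permutation p = 0.766), in a comparison where 72.6% of probe sets were. The sign of that contrast turned with the time taken as dark: -0.68 without the 6am arrays and 0.47 without the 12am arrays, both called (limma adjusted p of 0.0025 and 0.037).

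CML38 had its lowest values at 12pm and in the first 6am extract. Its levels were 3.05, 6.49 and 6.25 at 6am, 3.69, 3.29 and 3.28 at 12pm, 3.63, 5.23 and 5.29 at 6pm, and 6.12, 5.66 and 5.20 at 12am. Mean levels were 5.26 ± 1.92, 3.42 ± 0.23, 4.71 ± 0.94 and 5.66 ± 0.46 in that order (SD, n = 3). The 12am extracts lay above all extracts of 12pm, while the first extracts of 6am and 6pm lay at or near the 12pm values. All 9 arrays of 12pm lay between 2.73 and 3.81, in the low range for which no test of CML42 is reported. CML38 passed the threshold on low values only through the other times. Differences that involve 12pm are therefore compressed, no fold is given for them, and a lower 12pm value was in part fixed by how the gene passed. The level at 12pm minus that at 6am was -1.84 ± 0.50 (log2, SE) in the fit (limma adjusted p = 0.0017). In the first extracts the sign was the other way, with 0.64, against -3.19 and -2.97 in extracts 2 and 3. Without the first 6am extract the step was -2.95, and it was not called without replicate 2 (-1.17, adjusted p = 0.14) or without replicate 3 (-1.28, adjusted p = 0.12).

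The later steps of CML38 rested on few extracts. CML38 lay under 5 on all arrays of 12pm and passed the threshold on low values only through other times. A rise from 12pm was thus in part fixed by how the gene passed, and its p-values are not read as support for it. The level of CML38 at 6pm minus that at 12pm was 1.29 ± 0.50 (limma adjusted p = 0.047). This call was lost with the extracts as a random block (adjusted p = 0.11) and in 10 of 15 repeats that left out a replicate, with values from 0.93 to 1.97. Those 10 were the repeats without replicate 2 or 3 at all times, without any one of the 12pm or 12am extracts, and without 6pm extract 2 or 3. The 12am minus 6pm difference was 0.95 ± 0.50 and not called (limma adjusted p = 0.10), but was called without the first 6am extract at the same size (adjusted p = 0.0061). The 6am minus 12am difference was -0.40 ± 0.50 and not called (adjusted p = 0.52). Its sign turned without the first 6am extract (0.71, adjusted p = 0.075) and without replicate 1 (0.94, adjusted p = 0.0021), so that the order of 6am and 12am turned with 1 extract.

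Light minus dark, the level of CML38 was -1.39 ± 0.35 on the log2 scale (limma adjusted p = 0.00076). The 9 arrays of 12pm and the 3 of the first 6pm extract, all under 5, make up most of the light arrays, so this size too is taken near the lower end of the scale. CML38 passed the threshold on low values only through times other than 12pm. A lower light value was thus in part fixed by how the gene passed, and the p-values here are not read as support for it. The 6 light extracts ran from 3.28 to 5.29 and the 6 dark extracts from 3.05 to 6.49, and they overlapped through the first 6am extract and through 6pm extracts 2 and 3. The 3 replicate numbers gave -0.93, -1.81 and -1.44. The contrast was also called with extracts as a random block (limma adjusted p = 0.0019) and with the fractions of an extract averaged (0.027). An exact permutation test of 6 against 6 extracts gave p = 0.0606, or 0.0808 after adjustment over 8 tests. Without the first 6am extract the difference was -1.95. The markers of green tissue, root and stomata given above moved in the same contrast, and their part in this difference was not tested. In single fractions it was -1.58 in large polysomal RNA, -1.34 in small polysomal RNA and -1.25 in non-polysomal RNA, with limma adjusted p-values of 0.027, 0.062 and 0.081.

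**Figure D4:**
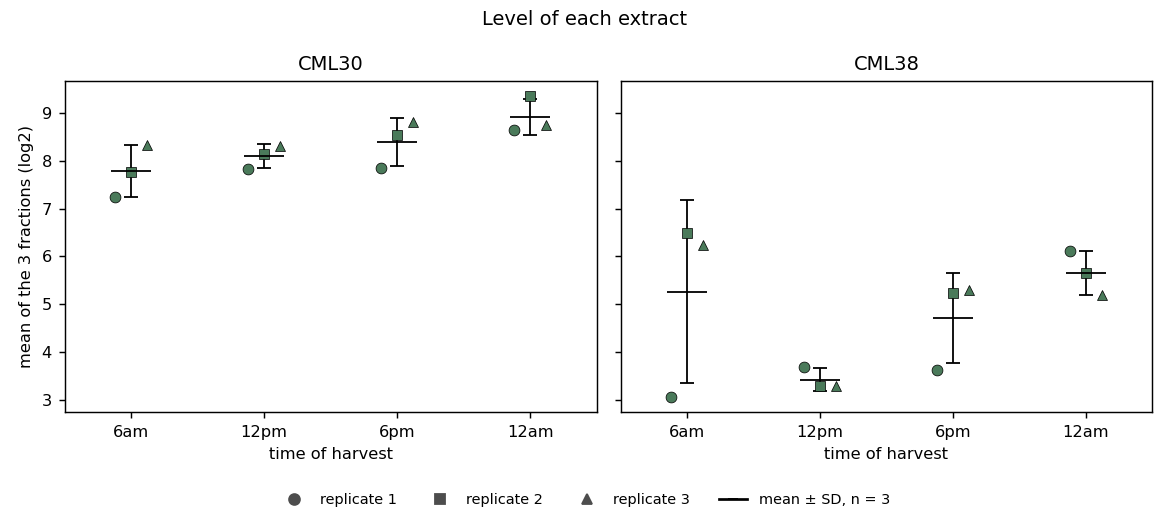
Level, the mean log2 value of the 3 fractions, of CML30 and CML38 in each of 12 extracts at the 4 harvest times, with a marker for each replicate and the mean ± SD of 3. CML30 runs between 7.24 and 9.36 with its highest mean at 12am, and CML38 runs between 3.28 and 3.69 at 12pm, near the lower end of the scale, with the first 6am extract at 3.05 against 6.49 and 6.25 in the other 2.

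CML38 was not alone in its low value in the first 6am extract. Among named genes it had the largest gap, 3.2 on the log2 scale, after those of STZ, a zinc finger repressor of stress responses, and of AT5G19240. The level of STZ was 2.90 in that extract, against 6.97 and 7.03 in the other 2. The genes at ranks 4 to 8 and at rank 10 carry a locus number only, and BCAT4, at rank 9, had 5.56 against 7.72 and 7.87. WRKY53, a transcription factor of senescence and defence at rank 11, had 6.41 against 8.53 and 8.75. The cold-regulated gene COR15A, at rank 12, had 7.02 against 9.11 and 9.19. Whether the genes low in that extract share a function was not tested. The part of harvest or handling in these values was not tested.

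Of 127 names of other calcium, receptor and MAP kinase pathway genes in 5 lists, 6 had a probe set named for them alone and 4 were measured. Loading passed the test upward in 1 of the 4 and downward in 2, where 80.1% of all probe sets were called, and light against dark in 1 upward and 3 downward, where 72.6% were. With 4 genes these counts are close to that background, and nothing is read from them about the lists. The calcium channel gene GLR3.3, a glutamate receptor-like gene that carries long-distance wound signals, had a loading of -0.04 ± 0.10 (SE, limma adjusted p = 0.71) and was higher in the light by 0.78 ± 0.08 (1.5e-09). Among receptor kinases, FER (FERONIA) had a loading of 1.40 ± 0.21 (limma adjusted p = 7.1e-07) and a light minus dark level of -1.57 ± 0.17 (2.3e-09). BIK1, a cytoplasmic kinase that acts beneath immune receptors, had -0.86 ± 0.10 (3.5e-09) and -0.74 ± 0.08 (1.8e-09) for these measures. WRKY22, a transcription factor downstream of MAP kinase cascades, had a loading of -0.96 ± 0.15 (limma adjusted p = 1.9e-06) and a light minus dark level of -2.23 ± 0.13 (5.1e-16).

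The MAP kinases that the rule left out by spelling differed from each other. ATMPK8 ran from 6.02 to 7.37 in large polysomal RNA and from 5.87 to 7.39 in non-polysomal RNA, and these ranges overlapped almost entirely. Its loading was 0.05 ± 0.12 (limma adjusted p = 0.73) and its level was higher in the light by 0.57 ± 0.10 (6.6e-06). ATMPK13 ran from 6.05 to 8.26 in large polysomal RNA and from 7.64 to 9.14 in non-polysomal RNA. Its loading was -1.38 ± 0.16 (limma adjusted p = 2.5e-09) and its light minus dark level -0.12 ± 0.13 (0.40). These directions are relative to the authors' scaling. When arrays were instead shifted so that the poly(A) spike-in controls had the same signal, the median loading of all probe sets was 2.72, and the loadings of ATMPK13, BIK1, WRKY22 and GLR3.3 turned to 1.28, 1.80, 1.71 and 2.62, all below that median, while CML30, CML38 and FER, with 5.90, 3.37 and 4.06, lay above it. In light against dark the median was 0.42 on that scale, and CML30 and ATMPK13 turned to 0.32 and 0.31 while the other 6 genes kept their sign.

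**Figure D5:**
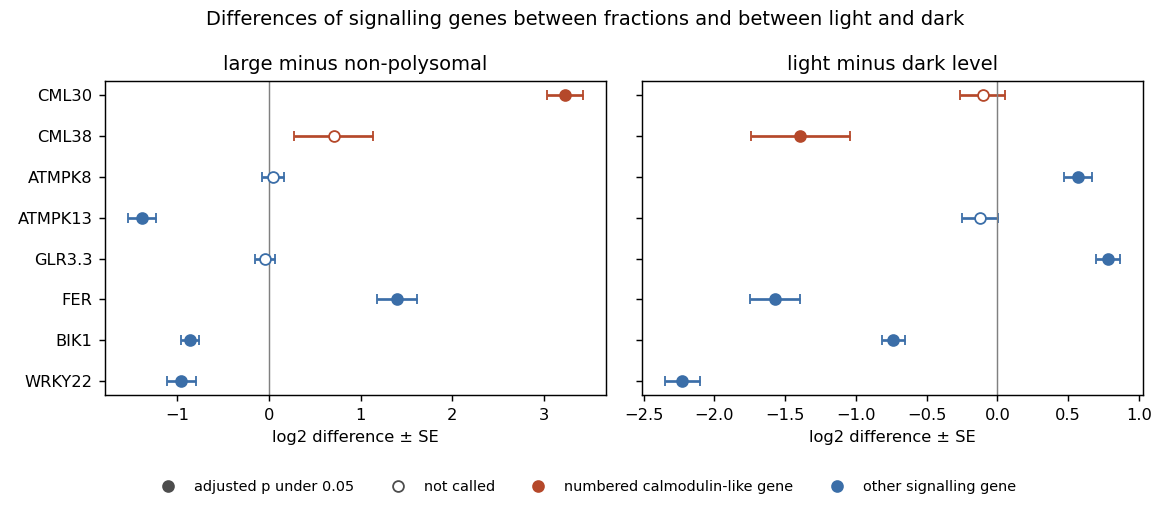
Large minus non-polysomal difference and light minus dark level difference (log2 ± SE of the limma fit) for CML30, CML38, the MAP kinase genes ATMPK8 and ATMPK13 and the 4 measured genes of the pathway lists. Filled points passed an adjusted p of 0.05. CML30 has a loading of 3.23, and CML38, whose 12pm values lie near the lower end of the scale, a light minus dark difference of -1.39. CML38 passed the threshold on low values only through times other than 12pm, which counts as light.

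The genes whose values ran most like those of each member were found by Pearson's r over the 12 group means among 6800 named genes. For CML30 these were AT5G14370 (r = 0.976), AT5G02530 and AT3G10020 (0.969 each), VPS2.1, a component of the ESCRT machinery (0.968), and LPA2, a photosystem II assembly factor (0.966). For CML38 they were CSLC04, a xyloglucan glucan synthase (r = 0.957), SEC15B, an exocyst subunit (0.950), AT1G08610 (0.919), AT5G61520 (0.916) and AT2G28200 (0.911). The 12 means share arrays and fractions, so these values describe the likeness of the patterns.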

How the data were processed

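Each of 36 arrays held RNA of 1 fraction of 1 extract. The deposited values are on a log2 scale, 1 for each probe set, and were made by the authors with GCRMA in R 3.1 with affy 1.42.3, per the submitters' processing notes, and run from 2.15 to 15.55. The GCRMA settings and the genome build are not given in the sources used here. Precision is limited by the number of arrays.

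The arrays hold 22810 probe sets, 64 of them controls, which were not tested. Tests covered the 12635 that reached 5 (log2) on 3 or more arrays. Of these, 6824 name 1 gene, 263 several and 5548 none in the annotation used here, and the probe set with the highest mean stood for a gene. Group means (12) were modelled in limma 3.58.1 under R 4.3.3 (lmFit, eBayes), p-values were adjusted after Benjamini and Hochberg over all probe sets tested, and calls were made at 0.05. Level is the mean of 3 fractions, and light minus dark the mean of 12pm and 6pm minus that of 12am and 6am. Permutation tests are two-sided. The script was tested on simulated data. Plots were made in Python 3.11.15 with pandas 2.3.3 and matplotlib 3.10.9.

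All 36 pairs of fractions with equal time and number correlated above 0.1 after group means were removed (median r = 0.42), so numbers pair the fractions within a time, and extracts were used as a block (consensus correlation 0.355). The fit without a block treats fractions of an extract as independent, which makes errors of a level too small and those of a fraction difference too large. Arrays of the same fraction and number at different times also correlated above 0.1 in 33 of 54 pairs, against 7 of 108 pairs with different numbers. The permutation tests and the block of extracts treat extracts as independent, which these correlations put in doubt. Their p-values may thus be too small or too large.

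The members, gene lists, comparisons and most alternatives were chosen with earlier results of these data known. By rule, the named genes are the called members with the largest changes of the same sign in all 3 replicates, the highest and lowest of each family and well-studied members, and with 2 members both are named for every comparison. The extracts left out at 6am, the genes named for their gap there and the likeness rule were chosen after values were seen. Alternatives covered the filter, scaling, eBayes settings, blocks, single fractions, other definitions of loading, subsets of arrays and each replicate left out. Promoter motifs were not analysed here.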

Additional observations from a re-analysis of the deposited data

How the results depend on the processing

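Of 647 values of the 2 genes under 36 alternatives, 564 kept their direction and their side of the threshold and 83 did not. The large minus non-polysomal, small minus non-polysomal and large minus small polysomal differences of CML30 kept both throughout. The cause of a changed value was not tested. Differences are log2 and those close to the lower end of the scale are compressed.

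For CML30, light minus dark level (-0.10) was 0.32 with equal spike-in signal, -0.68 without the 6am arrays and 0.47 without the 12am arrays. In single fractions, the p of its level over the 4 times was 0.22 (non-polysomal), 12pm minus 6am was -0.32 and 6am minus 12am -0.46 (non-polysomal), and 6pm minus 12pm was -0.04 (large polysomal). Its 12am minus 6pm step lost its call at 0.53 with no filter, extracts as a random block or averaged, each also without the first 6am extract, and at 0.05, 0.81 and 0.72 in non-polysomal, small and large polysomal RNA, and turned to -0.03 with equal spike-in signal, where the median of all probe sets was -0.57. With that signal its light minus dark loading was -0.03.

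For CML38, equal spike-in signal called large minus non-polysomal (3.37), small minus non-polysomal (1.52) and large minus small polysomal (1.85), where the medians of all probe sets were 2.72, 1.08 and 1.63. With a replicate block of extracts the first was called at 0.71 (random or fixed terms) and 0.82 (random, without the first 6am extract), and it was called at 0.70 without the 6am arrays. The second was called at 0.49 (fixed terms) and 0.61 (random, without that extract). In non-polysomal and small polysomal RNA alone, calls were lost for light minus dark (-1.25 and -1.34), the level over the 4 times (p of 0.21 and 0.12, and 0.051 with fractions averaged) and 12pm minus 6am (-1.33 and -2.05). Its 6pm minus 12pm step lost its call at 1.29 with no filter, a trended robust fit, a random block, fractions averaged or 1 probe set per gene, and at 0.66, 1.32 and 1.89 in non-polysomal, small and large polysomal RNA. Without the first 6am extract, with a random block or averaged, 12am minus 6pm was called at 0.95 and 6am minus 12am turned to 0.71, and 6am minus 12am was 0.10 in small polysomal RNA. Of the pairings tried, the replicate number alone as a block changed no call of these genes.

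With each replicate left out, values of CML30 ran from 3.11 to 3.33 for large minus non-polysomal, 0.97 to 1.2 for small minus non-polysomal, 2.05 to 2.2 for large minus small, -0.24 to 0.03 for light minus dark, 0.04 to 0.59, 0.09 to 0.58, 0.25 to 0.81 and -1.50 to -0.87 for the steps from 6am on, -0.12 to 0.30 for light minus dark loading, and p from 4.5e-05 to 0.061 for the level over the 4 times, the last without replicate 2. Those of CML38 ran from 0.56 to 0.94, 0.22 to 0.77, 0.12 to 0.37 and -1.95 to -1.09 for the first 4, -3.08 to -1.17, 0.93 to 1.97, 0.17 to 1.46 and -1.12 to 0.94 for the steps, and -0.77 to 0.03 for light minus dark loading. In the F test of the level over the 4 times, the limma adjusted p of CML38 ran from 5.9e-09 to 0.046.

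Counts of probe sets called were lower with 1 probe set per gene, a fit of 6800 in place of 12635 probe sets: 5456 against 10124 (large minus non-polysomal), 4649 against 8635 (small minus non-polysomal), 3810 against 7010 (large minus small), 4924 against 9179 (light minus dark), 5849 against 10940 (level over the times), 4514 against 8429, 1857 against 3865, 3937 against 7446 and 3190 against 6135 (steps from 6am on), 904 against 1599 (loading over the times) and 389 against 691 (light minus dark loading). The share called for large minus non-polysomal was 80.2% in that fit and 80.1% in the fit of all probe sets. Equal spike-in signal gave 12428 for large minus small, 6463 for the level over the times, 3983, 494 and 1041 for the 12pm, 6pm and 6am steps, and 1 and 4 for the 2 loading tests. Loading over the times and light minus dark loading gave 4385 and 2010 with a random block of extracts, 4499 and 2060 with fixed terms, 2635 and 1116 with the replicate number as a block, and 953 and 365 for the mean of large and small minus non-polysomal. The 6pm minus 12pm step gave 1625 with a random block, 729 with fractions averaged, and 1478, 599 and 184 in non-polysomal, small and large polysomal RNA. In the same fractions 12am minus 6pm gave 4466, 4302 and 4826, and 6am minus 12am gave 2884 in small and 2669 in large polysomal RNA and 3898 with fractions averaged. With replicates left out, counts ran from 829 to 4203 for 6pm minus 12pm, 3708 to 6304 for 6am minus 12am, 25 to 2165 for loading over the times and 17 to 1551 for light minus dark loading.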
